A study of Mus musculus with 3 samples.

Results

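The genes of cholesterol and fatty acid synthesis were followed across F10, F1 and F0, 3 sublines of the mouse melanoma line B16. The set holds 36 genes, taken by symbol for their place in these pathways, and all 36 were present among the 14293 genes of the deposited expression table. The set was chosen with earlier results of these data known. Each of them read at least 1 RPKM (sequenced reads divided by transcript length in kilobases and scaled to library size) in every library, so none depended on the filter on low values. The 3 sublines share the strain C57BL/6J and a melanoma origin, and the labels name no treatment and no introduced allele for any of them. By common use of these names, F10 is the line selected for growth in the lung and F0 the parent. Per the labels' protocols, culture was in a high-glucose medium holding 8% serum for at most 10 passages, and polyadenylated RNA from subconfluent cells went through a stranded kit. With 1 library for each of the 3 sublines there is no test and no replicate error here, and effects of subline, culture and library cannot be told apart. Nor can less RNA per cell be told apart from fewer cells that express a gene, since the RNA is from bulk cultures.

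Mammalian cells build cholesterol from acetyl-CoA through mevalonate, squalene and lanosterol, and fatty acids from the same precursor by carboxylation, chain elongation and desaturation. Most of these enzymes are targets of the transcription factors SREBP-1 and SREBP-2, encoded by Srebf1 and Srebf2. The precursors of these factors sit in the endoplasmic reticulum bound to Scap, where Insig proteins hold them while sterol is plentiful. When sterol runs low, Scap carries them to the Golgi, where cleavage frees the part that enters the nucleus. Dividing tumour cells, melanoma included, use both pathways to make membranes.

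Reads behind the values were estimated from the table itself, because low RPKM values gather at the worth of 1 fragment. At 1 RPKM, each kilobase of transcript stood for 5.39 fragments in F10, 6.32 in F1 and 5.44 in F0. The 36 genes rested on between 33 and 12017 estimated fragments in a library, and 95% intervals of ratios below come from these fragments and cover counting error only. The labelled lineage was checked by its markers, and 7 of 7 melanocyte genes were listed, summing to 8161 RPKM in F10, 8780 in F1 and 9896 in F0. Of 7 adipocyte markers 2 were in the table, at a sum of 1.57 RPKM in F10, 0.5 in F1 and 0 in F0, with Plin1 at 0 in F1 and F0 and Fabp4 at 0 in F0. Of 5 hepatocyte markers none was listed. Of 7 leukocyte markers 3 were listed, at sums of 1.27, 2.09 and 2.09 RPKM in F10, F1 and F0. Cd68 made up most of these sums, at 1.21, 2.06 and 2.09 RPKM in the same libraries. Ptprc, which marks all leukocytes, read 0 in F10, 0.0308 in F1 and 0 in F0, and Adgre1 read 0.0581, 0 and 0. All 7 fibroblast markers were listed, at 12.8 RPKM in F10, 4.69 in F1 and 5.38 in F0, and the part of such cells in the values below was not tested.

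Transcripts of lipid synthesis were lowest in F1 across nearly the whole set. Of the 36 genes, 33 read lowest in F1, 3 (Lbr, Ebp and Elovl1) in F10 and none in F0, where of all 10701 compared genes 33.3% read lowest in F1, 36.5% in F10 and 30% in F0. The highest value was that of F10 for 26 of the 36 genes, of F1 for Elovl1 and of F0 for 9, where the shares of all compared genes were 34.4% for F10, 33.6% for F1 and 32% for F0. The order F1, then F0, then F10 from low to high was shared by those 26 genes, and 7 more ran from F1 through F10 to F0. For 26 of the 36 genes the counting interval placed F1 below both other libraries, against 9.59% of the compared genes whose length was known. Together the 36 genes summed to 2091 RPKM in F10, 1429 in F1 and 1855 in F0, which is 0.595%, 0.396% and 0.502% of all RPKM in these libraries.

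**Figure D1:**
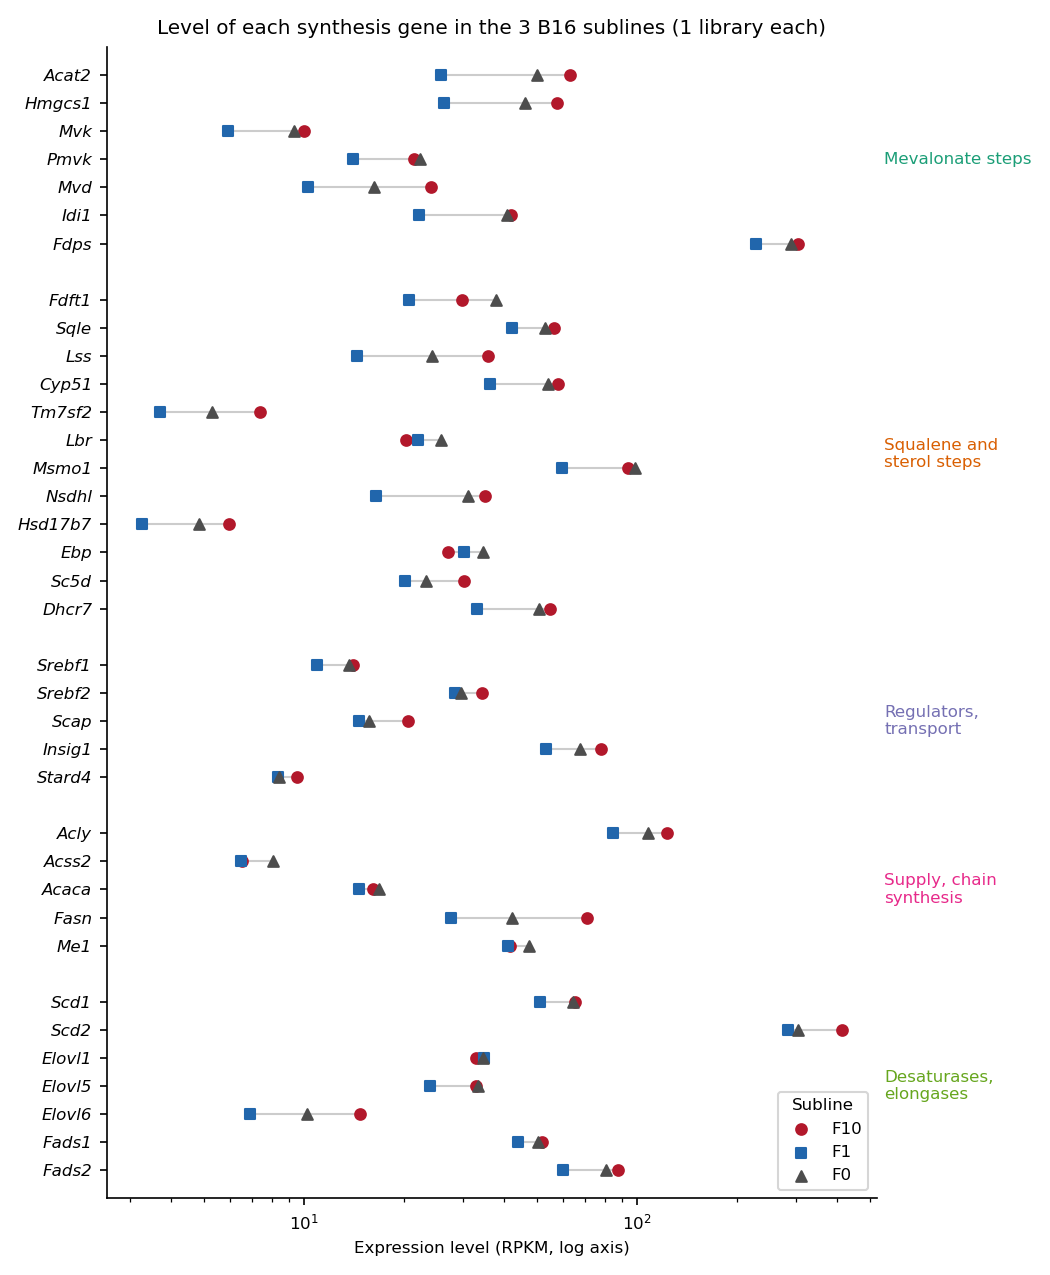
Expression level in RPKM (log axis) of each of the 36 synthesis genes in F10 (circles), F1 (squares) and F0 (triangles), 1 library each, grouped by role. The F1 square stands leftmost for 33 genes, and the exceptions are Lbr, Ebp and Elovl1.

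Levels per kilobase spanned a wide range. In each library Scd2, a stearoyl-CoA desaturase that makes monounsaturated fatty acids, was the most abundant, at 412 RPKM in F10, 285 in F1 and 305 in F0. Fdps, which makes farnesyl diphosphate, came next at 305, 227 and 291 RPKM in the same libraries. Hsd17b7, a ketosteroid reductase of the sterol branch, was the lowest, at 5.97 RPKM in F10, 3.26 in F1 and 4.85 in F0. The median of the 36 genes was 34.7 RPKM in F10, 24.8 in F1 and 34.6 in F0, above the medians of all compared genes, which were 10.1, 10.3 and 10.2 RPKM.

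Differences between libraries were taken on the log2(RPKM + 1) scale, with 2-fold or more counted as a call. In F10 against F1, 6 of the 36 genes read at least 2-fold higher and none at least 2-fold lower, where 2.07% of all compared genes read at least 2-fold higher and 1.92% at least 2-fold lower. Their median difference was 0.54, that of all compared genes -0.01, and 33 of the 36 lay above their F1 value (48.8% of all) and 3 below (51.1% of all). At 1.5-fold, 14 of the 36 read higher in F10 than in F1 (8.27% of all) and none lower (7.2% of all). Against F0, no gene of the set lay 2-fold apart in F1 in either direction (0.972% of all compared genes higher and 1.02% lower). At 1.5-fold, 11 of the 36 read lower in F1 than in F0 and none higher, where 5.68% of all read lower and 4.52% higher. The median difference of F1 from F0 was -0.39, that of all compared genes -0.01, and 35 of the 36 lay below their F0 value (50.8% of all). Counting intervals lay wholly below 1 in 29 of the 36 genes for the F1 to F0 ratio (20.5% of compared genes of known length), and wholly above 1 in 29 for the F10 to F1 ratio (22.2%). None lay wholly above 1 for the F1 to F0 ratio (19.1%) or wholly below 1 for the F10 to F1 ratio (23%). These 2 comparisons share the F1 library, so a low F1 value enters both.

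F10 and F0 lay closer together. No gene of the set was 2-fold apart (1.54% of all compared genes higher in F10 and 1.61% lower), and at 1.5-fold only Fasn read higher (5.86% of all) and none lower (6.46% of all). The median difference was 0.11 against -0.01 for all compared genes, with 26 of the 36 genes above their F0 value (49% of all) and 10 below (51% of all). Counting intervals lay above 1 in 13 genes (19.6% of compared genes of known length) and below 1 in 4 (21.3%), namely Fdft1, Lbr, Ebp and Me1.

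**Figure D2:**
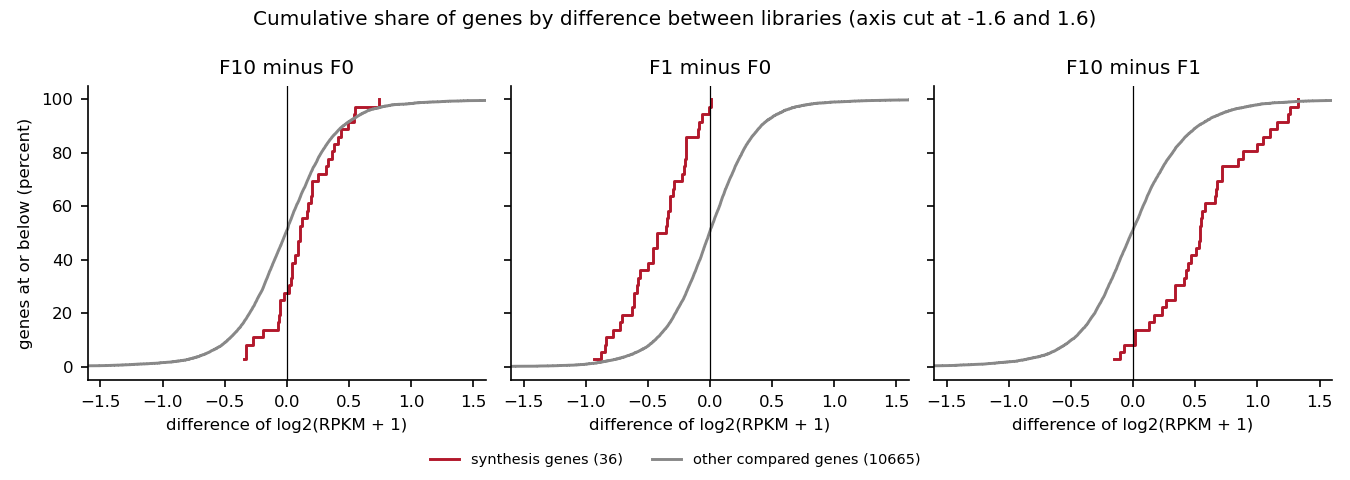
Cumulative share of genes (percent, vertical axis) by their difference of log2(RPKM + 1) between libraries (horizontal axis) for F10 minus F0, F1 minus F0 and F10 minus F1, with the 36 synthesis genes in red and the 10665 other compared genes in grey. The red curve lies to the left of the grey one for F1 minus F0 (medians -0.39 and -0.01) and to the right for F10 minus F1 (medians 0.54 and -0.01), while for F10 minus F0 the medians are 0.11 and -0.01.

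The enzymes from acetyl-CoA to farnesyl diphosphate had the largest medians of the 5 role groups for F10 against F1 and for F1 against F0. All 7 read lowest in F1, with median differences of 0.89 (F10 against F1), -0.63 (F1 against F0) and 0.09 (F10 against F0). Acat2, the cytosolic thiolase that joins 2 acetyl-CoA units (chromosome 17, 12942890 to 12960747, GRCm38), read 63.1 RPKM in F10, 25.8 in F1 and 50.1 in F0. Its F10 to F1 ratio was 2.45 (95% counting interval 2.16 to 2.78) and its F1 to F0 ratio 0.515 (0.45 to 0.587), the lowest F1 to F0 ratio of the set. Hmgcs1, the synthase of the next step (chromosome 13, 119690379 to 119708260), read 57.7 RPKM in F10, 26.4 in F1 and 46.2 in F0, with an F10 to F1 ratio of 2.19 (1.97 to 2.43). F1 was the low library for both, and F10 stood above F0 by more than counting error, at ratios of 1.26 (1.13 to 1.4) for Acat2 and 1.25 (1.14 to 1.37) for Hmgcs1. The mevalonate decarboxylase Mvd (chromosome 8, 122433601 to 122443422) read 24.1 RPKM in F10, 10.3 in F1 and 16.2 in F0, and its F10 to F1 ratio was 2.35 (1.85 to 2.96). Of the kinases that precede it, Mvk read 10 RPKM in F10, 5.9 in F1 and 9.33 in F0, and Pmvk read 21.4, 14 and 22.3 RPKM in the same libraries. For both kinases F10 and F0 were close, with F10 to F0 ratios of 1.07 (0.783 to 1.47) for Mvk and 0.963 (0.751 to 1.22) for Pmvk. Idi1, which interconverts the isoprenoid building blocks, read 41.8 RPKM in F10, 22.1 in F1 and 40.7 in F0, an F1 to F0 ratio of 0.545 (0.481 to 0.617). Fdps differed least, with an F10 to F1 ratio of 1.34 (1.26 to 1.43).

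The squalene and sterol steps followed with 10 of 12 genes lowest in F1 and medians of 0.66 (F10 against F1), -0.51 (F1 against F0) and 0.11 for F10 against F0. Lss, which closes squalene epoxide into lanosterol (chromosome 10, 76531588 to 76557138), read 35.7 RPKM in F10, 14.4 in F1 and 24.2 in F0, an F10 to F1 ratio of 2.47 (2.2 to 2.78). Nsdhl, a sterol dehydrogenase of the demethylation complex (chromosome X, 72918557 to 72958514), read 35.1 RPKM in F10, 16.5 in F1 and 31 in F0, an F10 to F1 ratio of 2.13 (1.8 to 2.51). Both were at least 2-fold higher in F10 than in F1, and Lss also stood above F0 in F10, at a ratio of 1.48 (1.33 to 1.64). Msmo1, the methylsterol oxidase of that complex, read 94.2 RPKM in F10, 59.4 in F1 and 99 in F0. Hsd17b7, the third enzyme of that complex, had an F10 to F1 ratio of 1.83 (1.41 to 2.4). Cyp51, the lanosterol demethylase, read 58.1 RPKM in F10, 36.3 in F1 and 54 in F0, and Dhcr7, the reductase that yields cholesterol, read 54.9, 33 and 50.9. In these genes F1 was low while F10 and F0 lay within counting error of each other. Sqle, the squalene epoxidase and a rate-controlling step, differed less, at 56.2 RPKM in F10, 42.1 in F1 and 52.9 in F0. Sc5d, a sterol desaturase, read 30.2 RPKM in F10, 20.2 in F1 and 23.3 in F0.

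Some sterol genes departed from this order. Fdft1, the squalene synthase, read 29.7 RPKM in F10, 20.6 in F1 and 37.7 in F0, so F10 lay below F0 at a ratio of 0.789 (0.702 to 0.887). Its exons overlap those of Ctsb on the opposite strand over 18.3% of their length, Ctsb read 90.9, 166 and 240 RPKM in F10, F1 and F0, and the part of Ctsb reads in the Fdft1 value was not tested. Ebp, the sterol isomerase, read 27.1 RPKM in F10, 30.2 in F1 and 34.6 in F0, with an F10 to F1 interval that included 1 (0.756 to 1.06). Lbr, the lamin B receptor of the nuclear envelope, is also a sterol reductase, and read 20.3 RPKM in F10, 21.9 in F1 and 25.8 in F0. The Lbr F10 to F1 interval also included 1 (0.808 to 1.06). Tm7sf2 encodes the other reductase for the same step and read 7.39 RPKM in F10, 3.69 in F1 and 5.3 in F0. For Tm7sf2 the F10 to F0 interval (0.924 to 2.15) and the F1 to F0 interval (0.424 to 1.12) included 1. The F10 to F1 interval (1.3 to 3.21) lay above it. The ratio of Lbr to Tm7sf2 RPKM was thus 2.75 in F10, 5.95 in F1 and 4.88 in F0. Tm7sf2 is the gene of the set with the fewest estimated fragments in F10, F1 and F0 (57, 33 and 41), and it shares 12.1% of its exon length with Vps51 on the same strand. Vps51 read 6.66, 4.63 and 4.61 RPKM in F10, F1 and F0, and the part of its reads in the Tm7sf2 value was not tested.

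**Figure D3:**
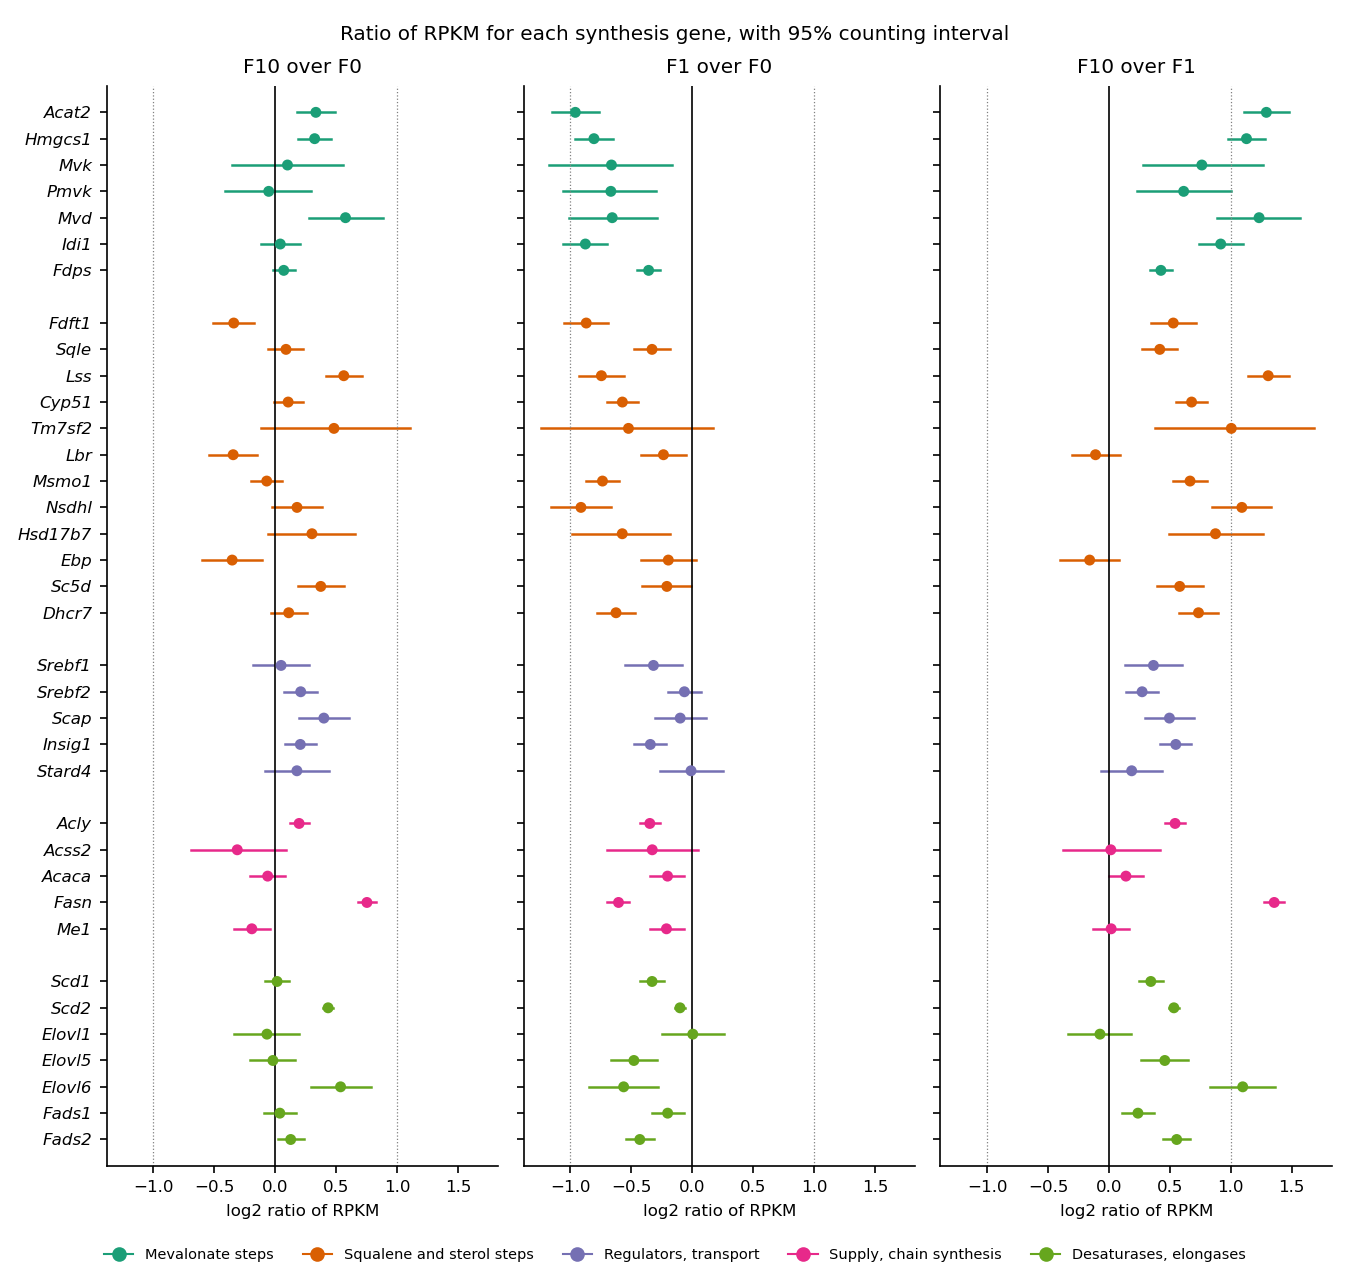
The log2 ratio of RPKM (horizontal axis) for each of the 36 synthesis genes in F10 over F0, F1 over F0 and F10 over F1, with 95% counting intervals as bars, colours for role and dotted lines at 2-fold. Intervals lie wholly below 1-fold for 29 genes in F1 over F0 and wholly above it for 29 genes in F10 over F1, while 13 lie above and 4 below in F10 over F0.

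All 5 regulators and sterol transport genes read lowest in F1 and highest in F10, with medians of 0.34 (F10 against F1), -0.09 (F1 against F0) and 0.20 for F10 against F0. Srebf2, the factor for cholesterol genes, read 34.3 RPKM in F10, 28.4 in F1 and 29.7 in F0, and its F1 to F0 interval included 1 (0.957, 0.87 to 1.05). Srebf1, the factor for fatty acid genes, read 14.1 RPKM in F10, 10.9 in F1 and 13.6 in F0, with an F1 to F0 ratio of 0.802 (0.681 to 0.942). These are transcript levels and do not measure the cleaved, active forms. Scap, the escort of both factors, read 20.6 RPKM in F10, 14.6 in F1 and 15.6 in F0, so it was high in F10 while F1 and F0 lay within counting error. Insig1, the retention factor and itself an SREBP target, read 78 RPKM in F10, 53.3 in F1 and 67.7 in F0, an F10 to F1 ratio of 1.46 (1.34 to 1.6). Its relative Insig2, which is not of the set, read lower in F10 than in F1, at 30.1, 37.6 and 45 RPKM in F10, F1 and F0, and like Insig1 it read lower in F1 than in F0. The ratio of Insig1 to Insig2 was 2.6 in F10, 1.42 in F1 and 1.5 in F0. Stard4, a carrier of sterol between membranes, read 9.53 RPKM in F10, 8.38 in F1 and 8.43 in F0, and none of its 3 intervals left 1.

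Of the 12 fatty acid genes, 11 read lowest in F1. Of the 5 genes of carbon and NADPH supply and chain synthesis, all read lowest in F1, with medians of 0.13 (F10 against F1), -0.29 (F1 against F0) and -0.06 for F10 against F0. Fasn, the synthase that builds palmitate (chromosome 11, 120805846 to 120824547), departed furthest from the others, at 71 RPKM in F10, 27.7 in F1 and 42.2 in F0. Its F10 to F1 ratio of 2.56 (2.42 to 2.71) was the highest of the 36 genes, as was its F10 to F0 ratio of 1.68 (1.6 to 1.77). Acly, which makes cytosolic acetyl-CoA from citrate, read 123 RPKM in F10, 84.6 in F1 and 108 in F0. Acss2, which makes it from acetate, read 6.52, 6.45 and 8.1 RPKM in F10, F1 and F0. The F0 value was highest, but all 3 Acss2 intervals included 1. The ratio of Acly to Acss2 RPKM was 18.9 in F10, 13.1 in F1 and 13.3 in F0. Acaca, the carboxylase that commits acetyl-CoA to fatty acids, read 16.1 RPKM in F10, 14.6 in F1 and 16.8 in F0, and its F10 to F1 interval included 1 (1.1, 0.999 to 1.21). Me1, the NADPH-producing malic enzyme, read 41.6, 41.1 and 47.6 RPKM in F10, F1 and F0. For Me1 the F10 to F0 interval (0.792 to 0.968) and the F1 to F0 interval (0.785 to 0.953) lay below 1. Thus within this group Fasn and Acly alone had F10 to F1 intervals above 1.

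Of the 7 desaturases and elongases, 6 read lowest in F1, and the medians were 0.44 (F10 against F1), -0.32 (F1 against F0) and 0.04 for F10 against F0. Elovl6, which lengthens the product of Fasn, read 14.8 RPKM in F10, 6.9 in F1 and 10.2 in F0. Its F10 to F1 ratio was 2.14 (1.78 to 2.57), and on the log2(RPKM + 1) scale its difference of 0.997 fell just short of 2-fold. Elovl5, which acts on polyunsaturated chains, read 32.9 RPKM in F10, 23.9 in F1 and 33.3 in F0. Elovl1, which makes very long saturated chains, was nearly level at 32.9, 34.6 and 34.5 RPKM in F10, F1 and F0, with all 3 intervals including 1. The desaturases of polyunsaturated chains differed in degree, with Fads2 at 88 RPKM in F10, 59.9 in F1 and 80.6 in F0 and Fads1 at 51.7, 43.9 and 50.4. Scd1 read 65 RPKM in F10, 51.3 in F1 and 64.4 in F0, so F10 and F0 were level. Scd2 was higher in F10, with an F10 to F0 ratio of 1.35 (1.31 to 1.39) and an F1 to F0 ratio of 0.933 (0.907 to 0.96). The ratio of Scd2 to Scd1 RPKM was 6.34 in F10, 5.56 in F1 and 4.74 in F0, and a stretch of 623 bases is 95.5% identical between their transcripts.

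Promoter sequence is shown for the 6 genes at least 2-fold higher in F10 than in F1, since they carry the calls. Each line holds the 150 bases before the transcript start in RefSeq on GRCm38.p6, 5′ to 3′ in the direction of the gene, and capitals mark matches to 4 motifs on either strand. The motifs are the sterol regulatory element core TCACNCCAC, the E-box CACGTG, the box CCAAT bound by NF-Y and the GC box GGGCGG bound by Sp1 family factors. SREBP binds the first and also E-boxes, and NF-Y and Sp1 are its known partners at many of these genes.
Acat2, chr17:12960726-12960875, minus strand: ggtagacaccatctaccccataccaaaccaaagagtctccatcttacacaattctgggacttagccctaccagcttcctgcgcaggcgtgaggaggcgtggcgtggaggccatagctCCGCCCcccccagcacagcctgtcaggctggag
Hmgcs1, chr13:119690201-119690350, plus strand: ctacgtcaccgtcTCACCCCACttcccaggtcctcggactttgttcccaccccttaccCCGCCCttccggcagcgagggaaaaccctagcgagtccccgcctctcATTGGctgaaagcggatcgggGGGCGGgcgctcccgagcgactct
Mvd, chr8:122443423-122443572, minus strand: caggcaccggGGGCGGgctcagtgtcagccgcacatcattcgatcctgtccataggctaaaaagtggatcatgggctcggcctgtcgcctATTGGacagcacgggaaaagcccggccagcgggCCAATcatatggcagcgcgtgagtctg
Lss, chr10:76531455-76531604, plus strand: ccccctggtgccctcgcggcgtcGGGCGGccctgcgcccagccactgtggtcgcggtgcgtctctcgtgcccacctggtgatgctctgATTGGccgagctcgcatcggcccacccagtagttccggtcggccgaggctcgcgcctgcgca
Nsdhl, chrX:72918371-72918520, plus strand: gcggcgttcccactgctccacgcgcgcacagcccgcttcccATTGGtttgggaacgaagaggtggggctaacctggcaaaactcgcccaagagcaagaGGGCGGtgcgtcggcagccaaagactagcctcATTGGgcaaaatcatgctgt
Fasn, chr11:120824548-120824697, minus strand: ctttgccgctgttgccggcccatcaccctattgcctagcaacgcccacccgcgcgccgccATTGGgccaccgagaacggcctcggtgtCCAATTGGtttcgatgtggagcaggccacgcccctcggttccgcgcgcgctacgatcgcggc
The element core was matched once, in Hmgcs1, 137 bases before the start. Acat2 held only a GC box in this stretch, and in Fasn a pair of CCAAT matches on opposite strands overlap. Positions count from the RefSeq start, and the gene spans given above are from GENCODE M21. The stretches of Acat2 and Lss run into those spans, and the stretches of Hmgcs1 and Nsdhl end short of them. For these genes the start thus differs between the annotations.

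RefSeq windows of 300 bases (250 before to 50 after a start) were at hand for 29 of the 36 genes, 37 windows in all. The NF-Y box was in 67.6% of these windows, in 37.4% of all 32851 promoter windows and in 38.3% of those of compared genes. The GC box was in 75.7% of the windows of the set, 35.7% of all and 64.6% of those of compared genes. E-boxes were in 18.9%, 7.15% and 10.2%, and the element core in 2.7%, 1.24% and 1.15%. Before the start, the 43 NF-Y matches had a median position of -62. Overlaps between matches occurred only in Fasn and in Elovl1, where a GC box and an NF-Y box share bases. Genes with an NF-Y box (24) had a median difference of 0.62 (F10 against F1) and -0.46 (F1 against F0), and the 5 without one had 0.55 and -0.42. For F10 against F0 these medians were 0.11 with the box and 0.33 without. Genes with an E-box (6) had 0.55 (F10 against F1), -0.40 (F1 against F0) and 0.23 (F10 against F0), and the 23 without one had 0.66, -0.50 and 0.10. Genes with a GC box (24) had 0.61, -0.42 and 0.15 in the same comparisons, and the 5 without one had 0.58, -0.50 and -0.02. A match describes letters and is not a binding site. Only the letters given above were searched for, so sites of other letters or outside the windows were not counted. The lack of a match therefore does not show the lack of a site.

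**Figure D4:**
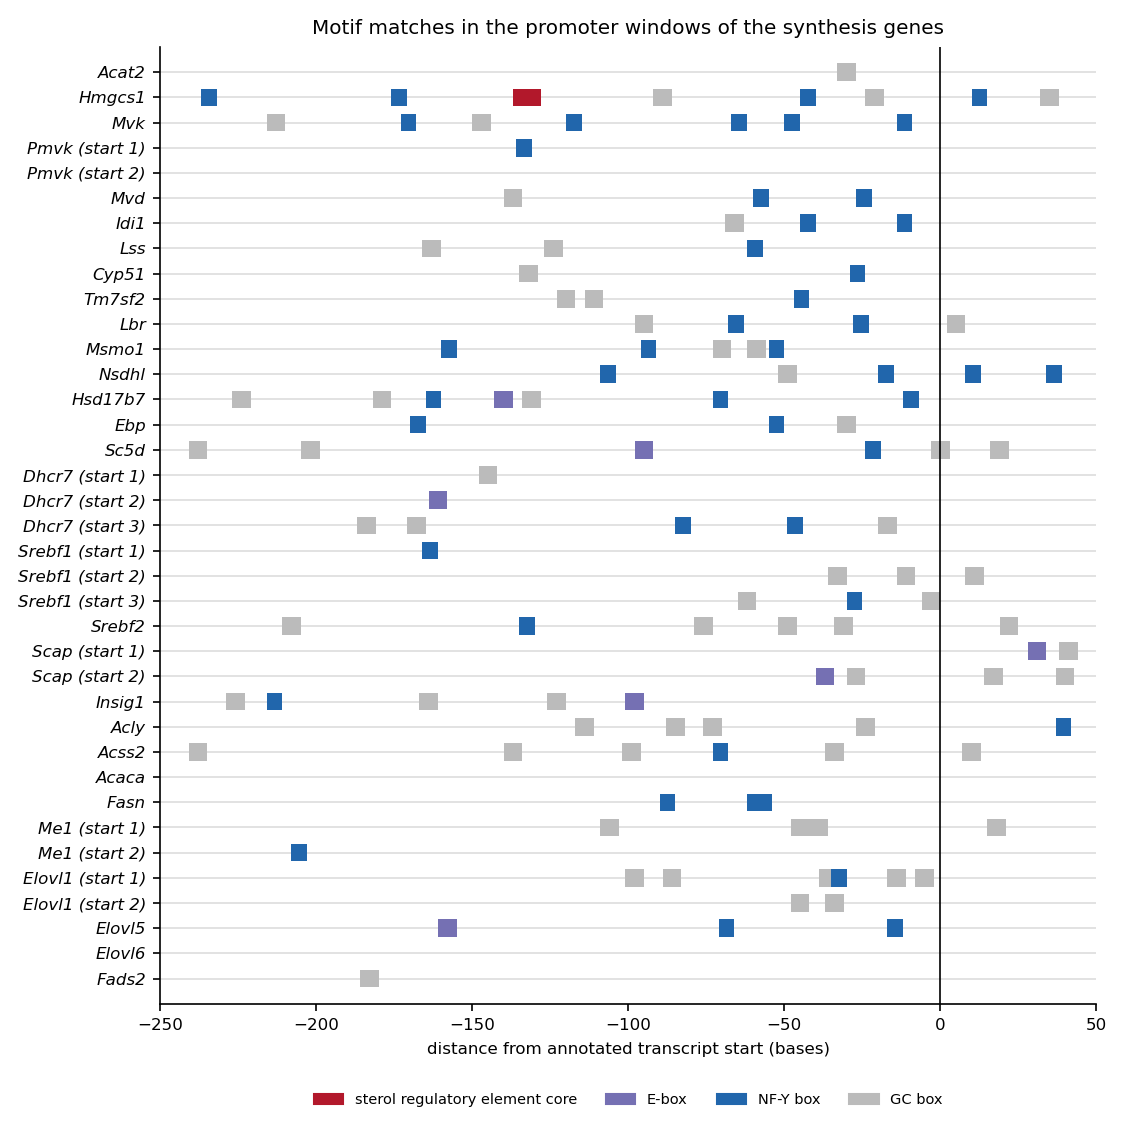
Positions of matches to 4 motifs (coloured boxes, to scale) along the 37 promoter windows of 29 synthesis genes, by distance in bases from the annotated transcript start (horizontal axis, start at 0). The NF-Y box appears in 25 of the 37 windows, the GC box in 28, the E-box in 7 and the sterol regulatory element core in 1, Hmgcs1.

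Neighbouring lipid pathways had medians nearer to 0 for F1 against F0 than the synthesis set as a whole (-0.39). Within the set, the median of the regulators and sterol transport genes (-0.09) lay in the range of these lists. That of carbon supply and chain synthesis was -0.29. Of all compared genes, 33.3% read lowest in F1 and 36.5% in F10. Of 24 other compared genes of the SREBP pathway and of lipid synthesis, 9 read lowest in F1 and 10 in F10, with medians of -0.02 (F10 against F1) and -0.21 (F1 against F0).

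Of 11 compared genes of cholesterol export, esterification and lysosomal exit, 5 read lowest in F1 and 5 in F10, with medians of 0.06 (F10 against F1) and -0.06 (F1 against F0), and none was 2-fold apart. Of 17 compared genes of fatty acid oxidation, 9 read lowest in F1 and 6 in F10, with medians of 0.19 and -0.11 for the same pairs. Eci2, an isomerase for unsaturated chains, was the only one 2-fold apart, at 26 RPKM in F10, 42.6 in F1 and 65.7 in F0. Among the 36 synthesis genes Lbr and Ebp had the same order, but their F10 to F1 intervals included 1. Of 19 compared genes of glycerolipid synthesis and storage, 9 read lowest in F1 and 5 in F10, with medians of 0.16 and -0.10. Mgll, the monoglyceride lipase, was the only one of these 2-fold apart, at 12.9 RPKM in F10, 21.3 in F1 and 27.1 in F0. The difference between these lists and the synthesis genes was not tested.

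**Figure D5:**
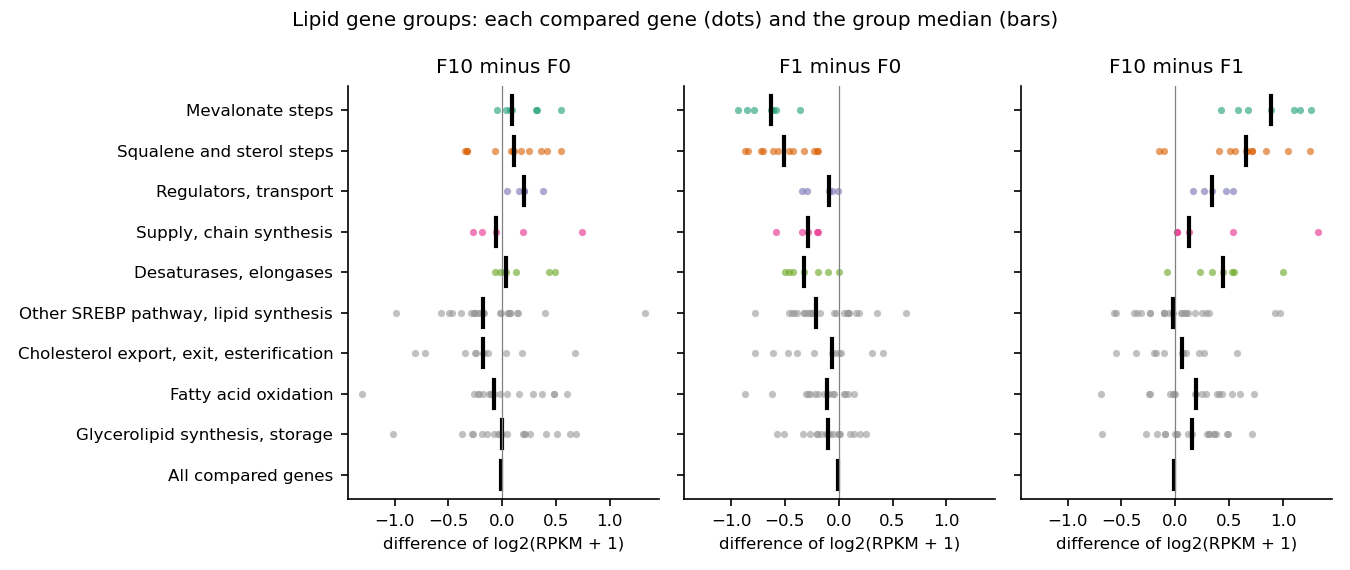
Difference of log2(RPKM + 1) (horizontal axis) for each compared gene (dots) and the group median (black bars) in the 5 role groups of the synthesis set, 4 neighbouring lipid lists and all compared genes (median only), for F10 minus F0, F1 minus F0 and F10 minus F1. The medians of mevalonate steps (-0.63) and of squalene and sterol steps (-0.51) lie lowest for F1 minus F0, and those of the same groups (0.89 and 0.66) highest for F10 minus F1.

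Some of these values carry limits of annotation. Near-identical copies (at least 95% identity over at least 200 bases) exist for 8 of the 36 genes, among them processed pseudogenes of Fdps, Idi1, Acaca, Fdft1, Me1 and Elovl6, and how reads were shared between copies is not given in the sources used here. Acat3, a close copy of Acat2, read 0.321 RPKM in F10, under 0.001 in F1 and 0.157 in F0, so the Acat2 values stand far above it. Fdps shares 26.7% of its exon length with the gene model Gm43738 on the same strand. Exons of 6 of the 36 genes overlap another compared gene, 5 of them on the opposite strand, and whether counting used the strand is not given in the sources used here.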

How the data were processed

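Per the submitters' processing notes, TopHat, Bowtie2, Cufflinks, bcl2fastq and the build mm10 were used. The annotation is not given in the sources used here, nor are versions and settings. The authors deposited 1 RPKM value per gene and library, per the file headers. They also deposited a score per comparison with F0, equal to the RPKM difference over the root of the sum within 1e-09, which was not used further. Of 14313 rows, 20 bore a date in place of a symbol and were left out. Genes at 1 RPKM or more in at least 1 library (10701) were compared as log2(RPKM + 1), a scale that understates differences of low genes. Python 3.11.15 with pandas 2.3.3 and scipy 1.17.1 was used.

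The worth of 1 fragment came from low values of single-transcript genes of at least 800 bases (length less 40 bases). Of values near the step, 79.6% in F10, 81.5% in F1 and 79.1% in F0 were within 5% of it. Fragments used the length of the APPRIS principal transcript of GENCODE M21 (GRCm38), or the median coding transcript. Promoters are from RefSeq (GRCm38.p6). Intervals are exact Clopper-Pearson. The steps were tested on simulated data. The pseudocount, filter, scaling, GC content, threshold and use of means were varied. Samples were grouped by subclone label. All 36 genes are described, and genes of other lists are named where 2-fold apart, besides Insig2, named for its place in the pathway. Some genes of these lists are not reported here. The members and lists were chosen with earlier results of these data known.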

Additional observations from a re-analysis of the deposited data

How the results depend on the processing

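The number of genes lowest in F1 was 32 of 36 on the TPM scale and 32 after division by median ratios. It was 33 after subtraction of the medians of GC bins. A pseudocount of 0.1 or 0.5 cannot change which library is lowest for a gene. The filter removed or raised to 5 RPKM dropped none of the 36 genes, so these alternatives could not move the count. Across the main setting and these 7 alternatives, 31.1% to 33.3% of all compared genes were lowest in F1. The median of the 36 genes ranged from -0.42 to -0.35 for F1 against F0, 0.54 to 0.58 for F10 against F1 and 0.11 to 0.18 for F10 against F0, means included. The median of carbon supply and chain synthesis genes for F10 against F0 (-0.06) turned to 0.00992 on the TPM scale, 0.00115 after subtraction of GC bin medians and 0.0817 as a mean, and for F10 against F1 (0.13) the mean was 0.40; the cause was not tested. At a threshold of 1.5-fold, 1 gene was higher in F10 than in F0, 11 were lower in F1 than in F0 and 14 were higher in F10 than in F1, and at 4-fold the last count was 0. After subtraction of GC bin medians Mvd fell short of 2-fold for F10 against F1 (0.92) and Idi1 reached it (1.03), and Elovl6 reached it under 4 alternatives (1.04 to 1.09). Over all compared genes, 2-fold calls numbered 104 to 221 upward and 109 to 205 downward per pair, against 229 to 473 and 308 to 354 with a pseudocount of 0.1, 154 to 343 and 213 to 268 with 0.5, 64 to 119 and 68 to 142 at a filter of 5 RPKM and 195 to 414 and 221 to 273 on the TPM scale. Depth limits Tm7sf2 most, and 1 library per subline leaves culture and library effects in every value. No paired analysis was possible because each subline has 1 library.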
